A study of Mus musculus with 24 samples.

Results

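The genes described here are the p53 family and the genes through which p53 limits its own activity, chosen by name: Trp53, Trp63 and Trp73, which encode the family, and Mdm2, Mdm4, Ppm1d, Ccng1 and Rchy1, which encode negative regulators of p53. All 8 were present among the 25239 genes of the expression table, and 7 of the 8 were among the 14104 genes with enough signal to be tested. Trp73 was the gene left out. The expression data came from 24 RNA-seq libraries of 6 mouse small cell lung cancer lines, each treated in 4 ways for 72 h. The mice behind all 6 lines carried floxed Rb1 and Rbl2, a Rosa26 FlpO-ERT2 recombinase, and both copies of Trp53 as the XTR allele, and tumours were started with an adenovirus that expresses Cre from the CMV promoter. Cre deletes floxed Rb1 and Rbl2 and turns XTR into its trapped form, so Rb1 and Rbl2 loss is shared by every group. In the trapped state (TR) the first Trp53 exon is spliced to a GFP cassette, and 4-OHT activates FlpO, which removes the trap and restores Trp53 (R). The study sorted the lines by how they responded to p53 reactivation. The 3 Type D lines (4711-1, 4711-18 and 4716-11) died by necrosis, and the 3 Type V lines (4711-11, 4716-10 and 4716-14) stayed viable. Each line was sequenced once as Control (vehicle), once with cyclosporin A (Control + CsA), once Restored (4-OHT) and once Restored + CsA, which gives 8 groups of 3 lines. Restored libraries were the only ones given 4-OHT, so an effect of the drug itself and an effect of p53 cannot be told apart here.

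p53, encoded by Trp53, is a transcription factor that is kept scarce in unstressed cells. Mdm2 encodes the ubiquitin ligase that marks p53 for degradation, and its own transcription is driven by p53, so that more p53 makes more of its destroyer. Mdm4 encodes a relative of Mdm2 that masks the p53 activation domain. Ppm1d encodes the phosphatase Wip1, which removes activating phosphates from p53 and from the kinases upstream of it. Ccng1 encodes cyclin G1, which recruits a phosphatase to Mdm2, and Rchy1 encodes Pirh2, another ubiquitin ligase for p53. p63 and p73 resemble p53 in their DNA-binding domain, and p63 is best known from basal epithelial cells. Small cell lung cancer almost always lacks p53 and Rb. In these lines p53 can be put back because the trap in Trp53 can be removed.

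p53 binds DNA as a tetramer over pairs of a 10-base half-site. RefSeq promoter windows (GRCm38.p6, 250 bases before to 50 after a transcription start) were found for 7 of the 8 genes, and 5 of these 7 (Trp53, Mdm2, Ppm1d, Ccng1 and Rchy1) held the p53 half-site consensus on either strand in a window. For comparison, 9.55% of the 27025 gene symbols with a window held one. The windows of Mdm4 and Trp73 held none. The Rchy1 window with a half-site lies inside the gene as GENCODE M21 places it, and the Rchy1 window at the GENCODE start held none. A match describes the letters only. Bases outside these windows were not searched, and binding of p53 to a half-site was not tested. The stretches upstream of Mdm2 and Ccng1, the feedback genes with the highest levels after restoration, are shown with the half-site in capitals, each 5′ to 3′ on the gene's own strand and without bases that GENCODE M21 places in an exon.
Mdm2, chr10:117710759-117711008, minus strand: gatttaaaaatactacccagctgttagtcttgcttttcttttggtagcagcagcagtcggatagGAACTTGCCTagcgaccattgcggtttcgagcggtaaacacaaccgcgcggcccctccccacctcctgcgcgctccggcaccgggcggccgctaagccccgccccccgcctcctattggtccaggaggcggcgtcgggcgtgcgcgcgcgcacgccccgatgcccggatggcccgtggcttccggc
Ccng1, chr11:40755312-40755536, minus strand: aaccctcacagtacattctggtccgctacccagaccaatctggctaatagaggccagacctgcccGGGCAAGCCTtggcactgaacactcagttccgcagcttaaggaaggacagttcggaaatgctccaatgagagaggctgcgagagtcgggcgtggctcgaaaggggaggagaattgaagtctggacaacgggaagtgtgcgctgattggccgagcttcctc
The half-site began 186 bases before the Mdm2 start and 185 bases before the Ccng1 start, both counted from the RefSeq transcription start. GENCODE M21 places the Ccng1 start further upstream, so fewer bases follow the half-site in the stretch shown. For the other 3 genes the 30 bases around the half-site are enough to compare its letters.
Trp53, chr11:69580274-69580303, plus strand: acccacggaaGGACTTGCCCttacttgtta
Ppm1d, chr11:85311112-85311141, plus strand: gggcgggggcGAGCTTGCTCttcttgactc
Rchy1, chr5:91962627-91962656, minus strand: cactatgacaGAGCTTGTCTcctcaaggtg

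Expression was deposited as transcripts per 1000000 (TPM), a level scaled for transcript length, so levels can be compared between genes. Each library has the same total by construction, and its read depth is unknown. Between 11853 and 12651 genes reached 1 TPM in a library. The 9 neuroendocrine markers fixed for this tumour type summed to 5.50 to 27.2 TPM in Type D and 16.4 to 85.8 TPM in Type V libraries, and 2 of the 9 in Type D and 3 in Type V had a median of at least 1 TPM. Ncam1 lay at 4.46 to 22.1 TPM in Type D and 7.18 to 27.3 TPM in Type V, and Uchl1 at 0 to 2.66 TPM and 3.12 to 40.9 TPM. Insm1 reached 3.39 TPM in Type D and 49.6 TPM in Type V, Syp stayed at or below 1.41 TPM, and Chga was listed at 0 in all 24 libraries. Type D lines carried more of the 5 epithelial markers in sum (4441 to 11816 TPM) than Type V lines (490.5 to 1577 TPM). The sum came mainly from Krt8, Krt18 and Cdh1. Epcam (median 0.77 TPM in Type D and 0.67 in Type V) and Cldn4 (0.51 and 0.16) were low in both. The 7 fibroblast and mesenchymal markers summed to 2745 to 5588 TPM in Type D and 4054 to 6755 TPM in Type V. The sum came mainly from Vim and Sparc in both, and 2 of the 7 in Type D and 6 in Type V had a median of at least 1 TPM. Median Col1a1 was 0.56 TPM in Type D and 91.8 in Type V, Col1a2 0 and 16.0, Col3a1 0 and 11.8, and Pdgfrb 0 and 23.2. Pdgfra was low in both (0.16 and 0.13). Changes below are differences of log2(TPM + 1) from limma, and a gene is called when its Benjamini-Hochberg adjusted p is under 0.05 and the change is at least 1. The p-values rest on the spread between lines, and whether the lines of a type came from separate mice is not given in the labels. The main fit treats the 4 libraries of a line as independent, although they share the line. Fits with the line as a block are given beside it where stated.

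Trp53 itself was low in every trapped library and high in every restored one. Its level in Type D Control was 10.9, 13.9 and 10.7 TPM in lines 4711-1, 4711-18 and 4716-11 (mean 11.9 ± 1.78, SD, n = 3), and in Type D Restored 213, 181 and 203 TPM (199 ± 16.0). In Type V Control the values were 13.6, 14.8 and 14.1 TPM in lines 4711-11, 4716-10 and 4716-14 (14.1 ± 0.604, n = 3), and in Type V Restored 189, 214 and 253 TPM (219 ± 32.2). All 12 restored libraries, with or without CsA, lay far above all 12 trapped ones, so no library went against its label in the targeted gene. The rise was 3.97 ± 0.14 (SE) on the log2 scale in Type D (adjusted p = 7.1e-13) and 3.85 ± 0.14 in Type V (adjusted p = 2.5e-12), which is 13.0- to 19.4-fold and 13.9- to 17.9-fold in TPM per line. The restored levels overlapped between the types, and their difference, Type D minus Type V, was -0.13 (95% interval -0.42 to 0.17). The table counts the Trp53 gene as a whole, so reads from the trapped transcript and from the full one are not separated. Trp53 lies on chromosome 11, 69580359 to 69591873, plus strand (GRCm38, GENCODE M21).

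**Figure D1:**
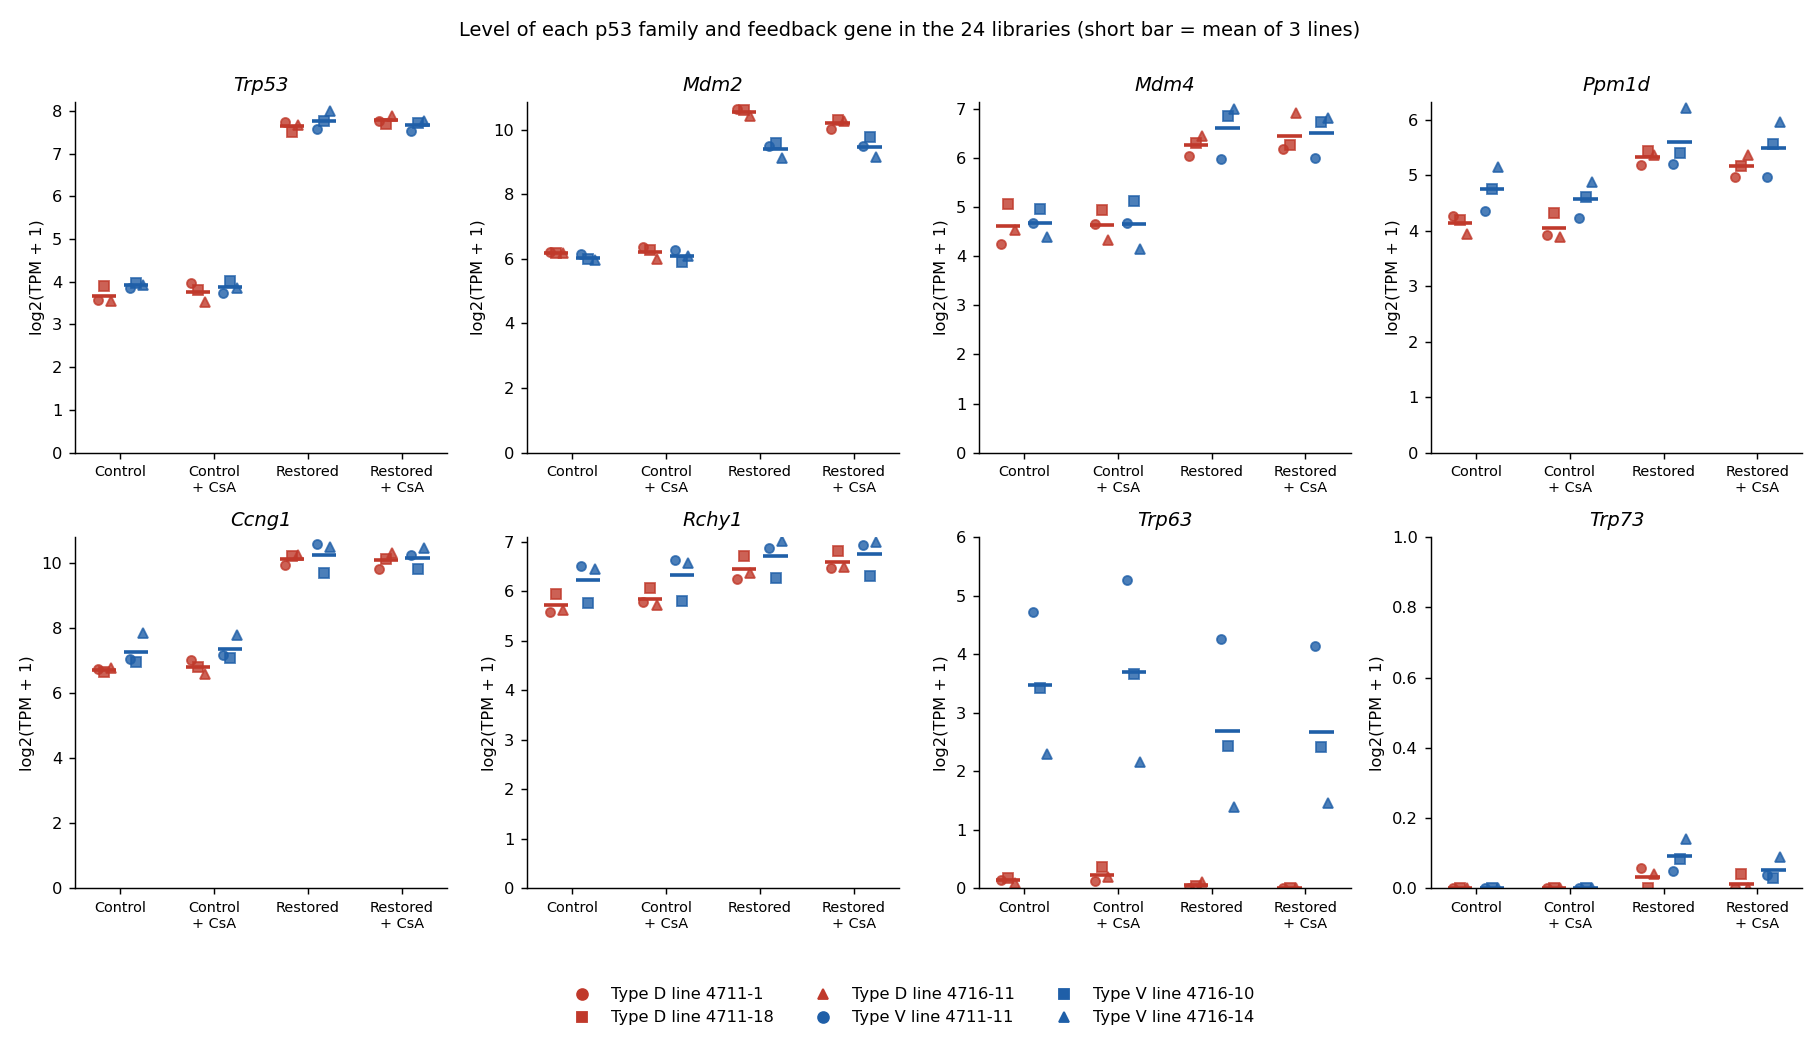
Level of each gene, as log2(TPM + 1), in the 24 libraries, by treatment; red symbols are the 3 Type D lines, blue symbols the 3 Type V lines, and short bars the mean of 3 lines. Trp53, Mdm2, Mdm4 and Ccng1 step up in all restored libraries, restored Mdm2 is higher in Type D (1384 to 1584 TPM) than in Type V (554 to 762 TPM), and Trp63 is seen in Type V lines.

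Across the set, restoration raised 5 of the 7 tested genes in Type D (Trp53, Mdm2, Mdm4, Ppm1d and Ccng1) and 4 in Type V (Trp53, Mdm2, Mdm4 and Ccng1), and none was called lower. Over all tested genes, 4.49% were called higher with restoration in Type D and 3.39% in Type V. Over all 6 lines the count was again 5, against 4.62% of all genes. Each of the 6 genes other than Trp63 rose in 6 of 6 lines. With CsA present the counts were 5 in Type D and 4 in Type V, against 3.53% and 2.84% of all genes called higher. The rise of Trp53 was set by the design, and the members were chosen with earlier results of these data known. The counts therefore describe the set and do not test it. Under CsA in Type D, Mdm4 lost its call without line 4716-11 (adjusted p = 0.066), and Ppm1d without any 1 of the 3 lines (adjusted p from 0.069 to 0.24).

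Mdm2, the ubiquitin ligase at the centre of the loop, rose to be one of the most abundant transcripts in these cells. Type D Control lines held 73.4, 71.4 and 71.6 TPM (72.1 ± 1.08, SD, n = 3), and the same lines after restoration held 1584, 1570 and 1384 TPM (1512 ± 112). Type V Control lines held 69.8, 63.2 and 61.9 TPM (65.0 ± 4.22), and after restoration 723, 762 and 554 TPM (680 ± 111). Restored and trapped libraries did not overlap in either type, nor did the restored libraries of the types overlap each other. Mdm2 moved from rank 2818 to 2994 among all genes of a library in Type D Control to rank 49 to 74 in Type D Restored, and from rank 3264 to 3482 to rank 173 to 221 in Type V. The rise was 4.37 ± 0.16 (SE) on the log2 scale in Type D (adjusted p = 7.1e-13) and 3.36 ± 0.16 in Type V (adjusted p = 5.8e-11). In TPM it was 19.3- to 22.0-fold per Type D line and 8.96- to 12.1-fold per Type V line. Ordered by level, Mdm2 was highest in Type D Restored, then Type D Restored + CsA (1178 ± 119 TPM), then Type V Restored + CsA (723 ± 157) and Type V Restored, which overlapped, and then the 4 trapped groups, which all lay between 59.0 and 82.2 TPM. Mdm2 lies on chromosome 10, 117688875 to 117710758, minus strand.

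Mdm4, the partner of Mdm2 that masks p53, rose less and varied more between lines. In Type D Control it measured 18.0, 32.5 and 22.3 TPM, and in Type D Restored 65.2, 77.9 and 86.7 TPM. In Type V Control it measured 24.7, 30.2 and 20.1 TPM, and in Type V Restored 62.0, 116 and 128 TPM. Restored and trapped libraries did not overlap in either type, while the types overlapped in both states. The rise was 1.65 ± 0.32 (SE) on the log2 scale in Type D (adjusted p = 0.0014) and 1.93 ± 0.32 in Type V (adjusted p = 4.2e-04). Per line it ran from 2.39-fold (4711-18) to 6.35-fold (4716-14) in TPM, and in each type the line with the highest Control level was not the one with the highest restored level. Mdm4 lies on chromosome 1, 132959484 to 133030561, minus strand.

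Ccng1, the gene of cyclin G1, was the most abundant member in trapped cells and rose in all 6 lines. Type D Control libraries held 106, 98.8 and 108 TPM, and Type D Restored 969, 1184 and 1209.6 TPM. Type V Control libraries held 129, 122 and 228 TPM, and Type V Restored 1527, 824 and 1417 TPM. Line 4716-14 stood above the other trapped lines with 228 TPM, and line 4716-10 below the other restored lines of its type with 824 TPM. The rise was 3.41 ± 0.26 (SE) on the log2 scale in Type D (adjusted p = 6.3e-08) and 2.98 ± 0.26 in Type V (adjusted p = 3.8e-07), or 9.18- to 12.0-fold and 6.23- to 11.8-fold in TPM. Restored Ccng1 ranked between 52 and 153 among all genes of a library. It lies on chromosome 11, 40748552 to 40755311, minus strand.

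Ppm1d, the Wip1 phosphatase gene, gave a smaller rise. Type D Control libraries held 18.2, 17.3 and 14.4 TPM and Type D Restored 35.6, 42.6 and 40.2 TPM. Type V Control libraries held 19.4, 25.9 and 34.7 TPM and Type V Restored 35.9, 41.1 and 73.0 TPM. Every restored library of a type lay above every Control library of that type, and line 4716-14 was the highest Type V line in both states. The rise passed in Type D (1.20 ± 0.27, SE, log2 scale; adjusted p = 0.0061). The call was lost without line 4711-18 (adjusted p = 0.079) and without line 4716-11 (adjusted p = 0.10). In Type V the difference was 0.85 ± 0.27 (adjusted p = 0.057, and 9.3e-05 with the cell line as a block, where 22.8% of all genes passed higher). Under CsA, Ppm1d passed in Type V at 0.92 ± 0.27 (adjusted p = 0.045), short of the size required for a call, where 4.3% of all genes passed higher at any size. Over all 6 lines the rise was 1.03 ± 0.19 (adjusted p = 6.9e-04), just over the size for a call. It still passed but fell short of that size with quantile normalization (0.94), with median-ratio scaling (0.96), without line 4716-11 (0.97) and without line 4716-14 (0.97).

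Rchy1, the Pirh2 ligase gene, changed least of the members that rose. Type D Control libraries held 46.7, 61.0 and 48.4 TPM and Type D Restored 75.4, 105 and 81.8 TPM. Type V Control libraries held 90.2, 53.3 and 86.7 TPM and Type V Restored 117, 76.4 and 129 TPM, so the Type V states overlapped because line 4716-10 was low in both. Within a line the shift was regular, 1.61- to 1.72-fold in the 3 Type D lines and 1.30- to 1.49-fold in the 3 Type V lines. Over all 6 lines the rise was 0.61 ± 0.18 (SE, log2 scale; adjusted p = 0.021), a size at which it passed but was not called. At any size, 13.7% of all genes passed higher in that comparison. It no longer passed without any 1 of the Type D lines or without line 4716-14 (adjusted p from 0.061 to 0.091). By type the differences were 0.73 ± 0.26 in Type D (adjusted p = 0.071) and 0.48 ± 0.26 in Type V (adjusted p = 0.29). With the cell line as a block they had adjusted p = 1.7e-07 and 1.6e-05, in fits where 27.6% and 22.8% of all genes passed higher. Exons of Rchy1 share 680 bases with Thap6 on the opposite strand (5.59 to 18.7 TPM over the libraries), and strand use in counting is not given in the sources used here. Rchy1 lies on chromosome 5, 91948904 to 91963068, minus strand.

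**Figure D2:**
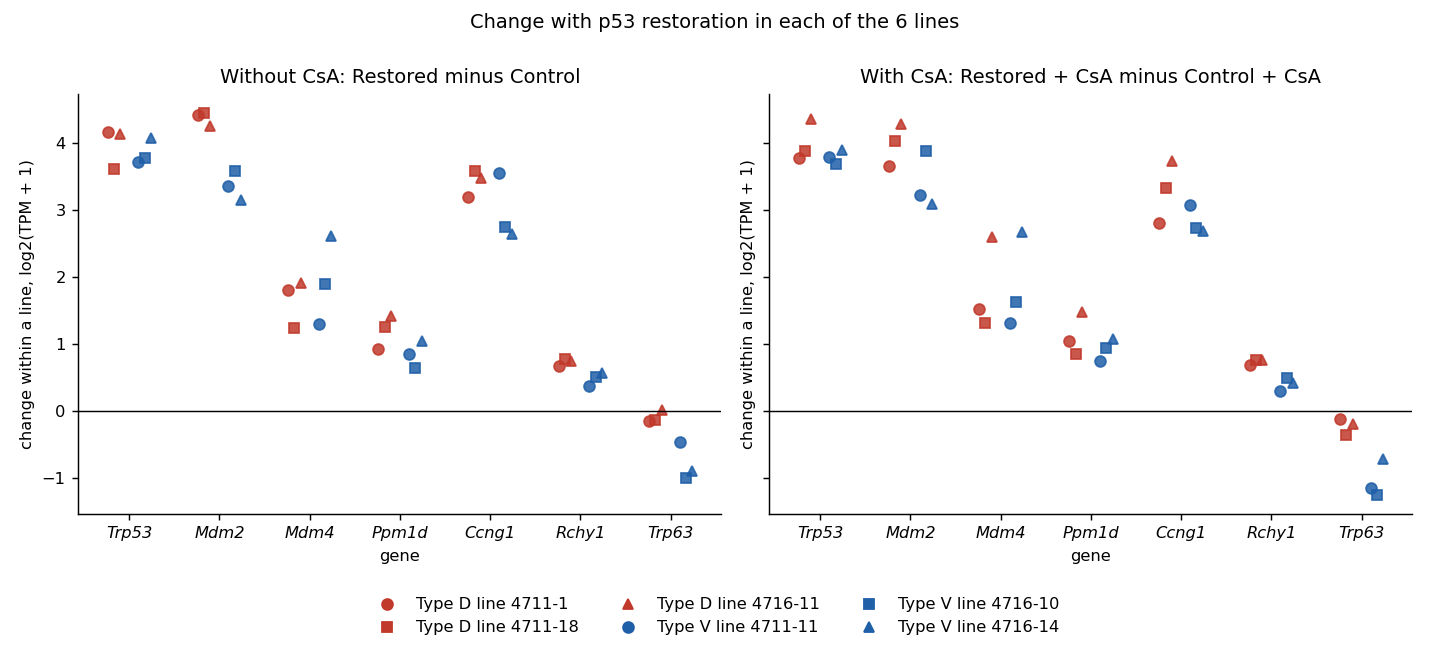
Change in log2(TPM + 1) with restoration inside each of the 6 lines, without CsA (left) and with CsA (right), for the 7 tested genes; red symbols are Type D lines and blue symbols Type V lines. All 6 lines lie above 0 for Trp53, Mdm2, Mdm4, Ppm1d, Ccng1 and Rchy1. Without CsA the 3 Type D lines lie above the 3 Type V lines for Mdm2, Rchy1 and Trp63, the last being near 0 TPM in Type D.

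The other family members behaved differently from Trp53. Trp63, which encodes p63, was found in Type V lines and hardly in Type D lines. Type V Control libraries held 25.3, 9.67 and 3.89 TPM in lines 4711-11, 4716-10 and 4716-14, and Type D Control libraries 0.106, 0.124 and 0.0579 TPM. After restoration the Type V lines held 18.2, 4.36 and 1.62 TPM, and the Type D lines were listed at 0, 0.0258 and 0.0723 TPM. The order of the 3 Type V lines was the same under all 4 treatments, with 37.7, 11.7 and 3.48 TPM under Control + CsA and 16.6, 4.34 and 1.73 TPM under Restored + CsA, while all 3 Type D lines were listed at 0 under Restored + CsA. Type D was called lower than Type V in Control (-3.34 ± 0.76, SE, log2 scale; adjusted p = 0.0062), in Restored (-2.65 ± 0.76; adjusted p = 0.025) and in Restored + CsA (-2.67 ± 0.76; adjusted p = 0.028). The call was lost in Control without line 4711-1 (adjusted p = 0.051), and in both restored comparisons without any 1 of the Type D lines or without line 4716-10 (adjusted p from 0.053 to 0.13). In the 12 Type D libraries the level never passed 0.278 TPM. Trp63 therefore met the filter of at least 1 TPM in at least 3 samples only through Type V libraries. A gene tested on that ground can hardly be called higher in Type D, so these calls add little to the levels themselves. In RNA of a whole line, fewer cells with the transcript and less of it per cell cannot be told apart. Trp63 lies on chromosome 16, 25683763 to 25892102, plus strand.

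Within Type V, Trp63 was lower after restoration in all 3 lines, at 0.718, 0.451 and 0.418 times its Control level. The difference was -0.78 ± 0.76 (SE, log2 scale; adjusted p = 0.64), and had adjusted p = 3.0e-04 with the cell line as a block, where 17.8% of all genes passed lower at any size. Under CsA the Type V lines stood at 0.439, 0.373 and 0.498 times their trapped level, a difference of -1.03 (adjusted p = 0.53). The block called that difference (adjusted p = 3.0e-05), against 2.94% of all genes called lower in the same fit. The basal epithelial markers Krt5, Krt14, Krt15, Ngfr and Dsg3 summed to 1.19 to 17.4 TPM in Type V libraries and 0.167 to 12.4 TPM in Type D libraries. Krt5 stayed at or below 1.08 TPM in Type V and Dsg3 at or below 0.0519 TPM, while Krt14 reached 6.42, Krt15 4.79 and Ngfr 17.2 TPM. In Type D, Krt14 reached 9.49 TPM, Krt5 3.17 and Krt15 1.97. Ngfr stayed at or below 0.0511 TPM there and Dsg3 at or below 0.0980 TPM. Line 4711-11, with the most Trp63, had a basal sum of 3.31 TPM in Control, and line 4716-14, with the least Trp63 of its type, had 13.4 TPM, of which Ngfr gave 12.0.

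Trp73, which encodes p73, was listed at 0 in all 12 trapped libraries. In restored libraries it was listed above 0 in 9 of 12, at no more than 0.102 TPM. The Type V Restored values were 0.0344, 0.0591 and 0.102 TPM, and the Type D Restored values were 0.0412, 0 and 0.0277 TPM. Levels this low were under the filter and were not tested, and 280 exon bases of Trp73 overlap the antisense gene Trp73os, which is not analysed here. Trp73 lies on chromosome 4, 154056253 to 154140208, minus strand.

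Type D and Type V lines were next compared at the same treatment, which asks whether the feedback genes differ between lines that die and lines that survive. In Control, 1 of the 7 tested genes was called (Trp63), against 8.83% of all genes. In Restored, 2 were called (Trp63 lower and Mdm2 higher in Type D), against 9.44%. In Restored + CsA, 1 was called (Trp63), against 7.82%. Trp63 was among the tested genes only through its Type V levels, so its calls here add little to those levels. Mdm2 did not pass before restoration (Type D minus Type V 0.15, 95% interval -0.18 to 0.48, adjusted p = 0.57), although its Type D Control values all lay above the Type V ones. After restoration the difference was 1.16 ± 0.16 (SE, adjusted p = 5.6e-05), with all 3 Type D libraries above all 3 Type V libraries and a mean 2.23 times as high. With the line as a random block in limma the same difference had SE 0.23 and adjusted p = 0.0017, where 1589 of 14104 genes were called. With CsA it was 0.72 ± 0.16 (adjusted p = 0.0047), which passed but was too small for a call. At any size 11.9% of all genes passed in that comparison. The Type D mean was then 1.63 times the Type V mean. The types also differed in the sum of epithelial markers and in several mesenchymal markers given above. The part of either in the Mdm2 difference was not tested.

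Whether Mdm2 rose further in Type D than in Type V was tested as the difference of the 2 rises. It was 1.01 on the log2 scale (95% interval 0.55 to 1.48), with adjusted p = 0.31 across all genes and adjusted p = 0.0075 with the cell line as a block. None of the 7 genes was called for this difference by limma, and 1 (Mdm2) had an unadjusted p under 0.05. Of all genes, 0.0284% were called, and 2.44% with the block, where Mdm2 was the 1 member called. Under CsA the difference for Mdm2 was 0.59 (0.13 to 1.06), again with none of the 7 called, 1 at an unadjusted p under 0.05, and 0.0142% of all genes called. The remaining members gave differences of -0.28 (Mdm4) to 0.70 (Trp63) without CsA, each with an interval that includes 0. With the block, Trp63 also passed without CsA (0.70, adjusted p = 0.046), where 5.57% of all genes passed at any size, and Trp63 (0.81, adjusted p = 0.024) and Rchy1 (0.33, adjusted p = 0.039) passed under CsA, where 5% did. Type D Trp63 is near 0 in every state, so it had little room to fall on this scale.

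**Figure D3:**
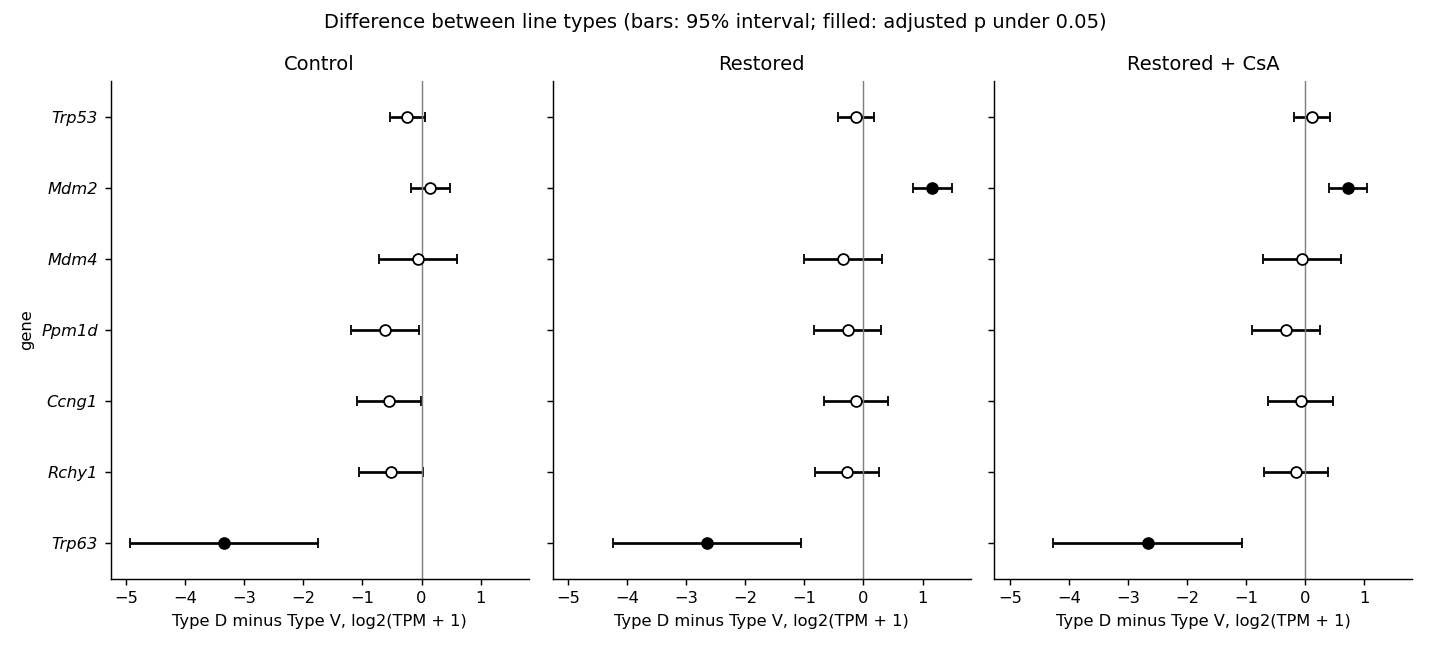
Type D minus Type V in log2(TPM + 1) for the 7 tested genes in Control, Restored and Restored + CsA; points are limma estimates over 3 lines a group, bars the 95% interval, and filled points have an adjusted p under 0.05. Mdm2 moves from 0.15 in Control to 1.16 in Restored and 0.72 in Restored + CsA, while Trp63 is lower in Type D in all 3 panels.

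Other members showed no called difference between the types. In Control, Ppm1d was lower in Type D by estimate (-0.62, 95% interval -1.20 to -0.05, adjusted p = 0.15), as were Ccng1 (-0.56, -1.10 to -0.01, adjusted p = 0.17) and Rchy1 (-0.52, -1.06 to 0.02, adjusted p = 0.20). Rchy1 had adjusted p = 0.045 with the line as a random block, where 15.6% of all genes passed at any size. Ppm1d and Ccng1 were lower in every Type D Control line than in every Type V Control line. After restoration the 3 estimates were -0.27, -0.12 and -0.28, each with an interval that includes 0. Mdm4 differed by -0.06 in Control (-0.73 to 0.60) and -0.35 in Restored (-1.01 to 0.31).

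The balance between feedback genes within a library was then compared, since a ratio inside one library is free of scaling between libraries. With p53 restored, each Trp53 transcript was matched by 7.44, 8.65 and 6.82 Mdm2 transcripts in the Type D lines and by 3.83, 3.55 and 2.19 in the Type V lines. The log2 ratio differed by 1.29, and the types did not overlap (two-sided exact permutation p = 0.1, and 3 lines against 3 can give no smaller value). In Control the same ratio ran from 5.13 to 6.70 in Type D and from 4.28 to 5.15 in Type V, a difference of 0.39 (exact permutation p = 0.2). The ratio was thus higher after restoration than in Control on average in Type D (7.64 against 6.17) and lower in Type V (3.19 against 4.61). Reads of the trapped Trp53 transcript are not separated from full ones, so Control and Restored ratios may not count the same transcript.

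Mdm2 outnumbered Mdm4 in all 24 libraries, and by more after restoration. The Mdm2 to Mdm4 ratio in Restored was 24.3, 20.2 and 15.9 in Type D and 11.7, 6.59 and 4.34 in Type V, a difference of 1.51 on the log2 scale (exact permutation p = 0.1). In Control it was 3.16 ± 0.94 in Type D and 2.66 ± 0.51 in Type V (SD, n = 3 each, log2 difference 0.22, exact permutation p = 0.4). Ccng1 stood to Mdm2 in the opposite order. The Ccng1 to Mdm2 ratio in Restored was 0.612, 0.754 and 0.874 in Type D and 2.11, 1.08 and 2.56 in Type V, a difference of -1.28 (exact permutation p = 0.1), so Mdm2 was the more abundant of the pair in every Type D line and Ccng1 in every Type V line. In Control, Ccng1 was the more abundant in all 6 lines, at 1.44 ± 0.061 times Mdm2 in Type D and 2.49 ± 1.03 times in Type V (SD, n = 3 each). The types were already apart then, with a log2 difference of -0.71 and no overlap (exact permutation p = 0.1). These 3 ratios all contain Mdm2 and are not independent of one another. Adjusted over the 3 exact permutation tests, p remained 0.1.

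**Figure D4:**
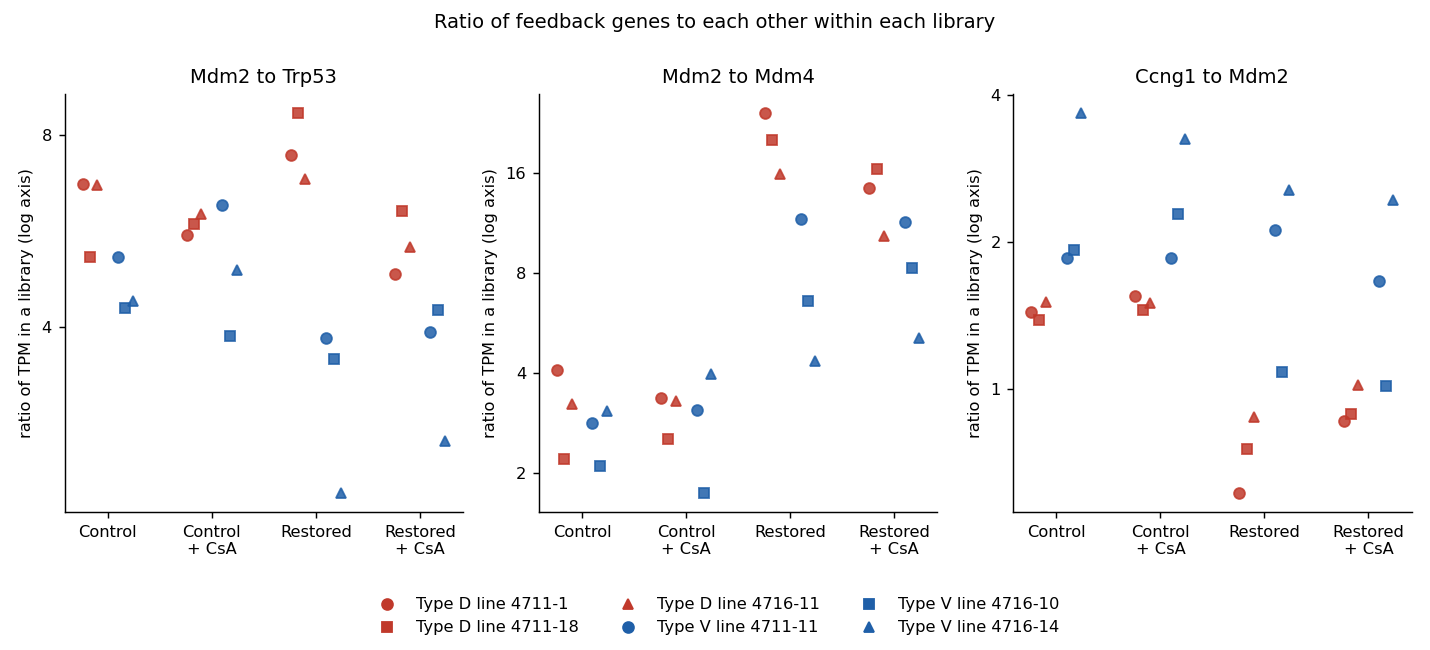
Ratio of TPM between gene pairs inside each library, on a log axis, by treatment; red symbols are Type D lines and blue symbols Type V lines. In Restored the Mdm2 to Trp53 ratio is 6.82 to 8.65 in Type D against 2.19 to 3.83 in Type V, and the Ccng1 to Mdm2 ratio is under 1 in all 3 Type D lines and over 1 in all 3 Type V lines.

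CsA binds cyclophilins and was used in the study to ask whether the response to p53 depends on them. On trapped cells it was followed by no called change in any of the 7 genes in Type D, in Type V or over all 6 lines. This was by limma without a block, where none had an unadjusted p under 0.05. No gene of the table was called in that fit (0% in each comparison). The estimates for the members ran from -0.18 (Ppm1d, Type V) to 0.23 (Trp63, Type V), and apart from Trp63 their intervals lay within -0.75 and 0.69. With the cell line as a block in limma, again none of the 7 was called. Rchy1, higher with CsA in 6 of 6 lines, then had an unadjusted p of 0.014 over all 6 lines (adjusted p = 0.35). Its unadjusted p in Type D alone was 0.038 (adjusted p = 0.70). Of the 14104 genes tested, the block called 2 in Type D, 0 in Type V and 2 over all 6 lines.

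On restored cells, CsA was followed by a lower Mdm2 level in all 3 Type D lines. Line 4711-1 held 1584 TPM without and 1041 TPM with CsA, line 4711-18 held 1570 and 1251, and line 4716-11 held 1384 and 1244, which is 65.7%, 79.7% and 89.9% of the level without CsA. The 3 libraries with CsA all lay below the 3 without. In Type V the lines held 723, 762 and 554 TPM without and 715, 883 and 570 TPM with CsA, which is 98.9%, 116% and 103%. The Type D difference of -0.36 (95% interval -0.69 to -0.03) had adjusted p = 1.0, and the difference between the types, -0.44 (-0.91 to 0.02), had adjusted p = 1.0. None of the 7 genes was called for CsA on restored cells in Type D (0.0142% of all genes were), in Type V (0%) or over all 6 lines (0%), and none for the difference between types (0%). At an unadjusted p under 0.05 there was 1 in Type D (Mdm2) and none in the other 3. These results are from limma without a block. With the cell line as a block, Mdm2 had adjusted p = 0.25 in Type D (unadjusted 0.014) and 0.77 for the difference between types (unadjusted 0.030). Rchy1 had adjusted p = 0.35 in Type D (unadjusted 0.034). No member was called with the block. Of the 14104 genes tested, it called 18 in Type D, 0 in Type V, 0 over all 6 lines and 1 for the difference. With CsA the ratio of Mdm2 to Trp53 came to 4.84, 6.06 and 5.33 in Type D and 3.93, 4.25 and 2.65 in Type V, still without overlap (log2 difference 0.61, exact permutation p = 0.1). The other ratios overlapped between the types with CsA. Mdm2 to Mdm4 ran from 10.3 to 16.4 in Type D and 5.10 to 11.4 in Type V (log2 difference 0.78, exact permutation p = 0.2), and Ccng1 to Mdm2 from 0.861 to 1.02 and 1.01 to 2.44 (log2 difference -0.80, exact permutation p = 0.2).

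Trp53 itself did not pass in either type when CsA was added to restored cells. Its level with CsA was 215, 206 and 233 TPM in Type D, or 101%, 114% and 115% of the level without, and 182, 208 and 215 TPM in Type V, or 96.5%, 96.9% and 85.3%. The difference between the types was 0.24 (95% interval -0.18 to 0.66; adjusted p = 1.0). Mdm4 with CsA measured 72.2, 76.1 and 120.3 TPM in Type D and 62.8, 106 and 112 TPM in Type V, Ppm1d 30.2 to 40.5 and 30.5 to 61.3 TPM, Ccng1 896 to 1265 and 895 to 1393 TPM, and Rchy1 87.6 to 112 and 78.5 to 127 TPM. Each of these ranges overlapped the range without CsA.

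**Figure D5:**
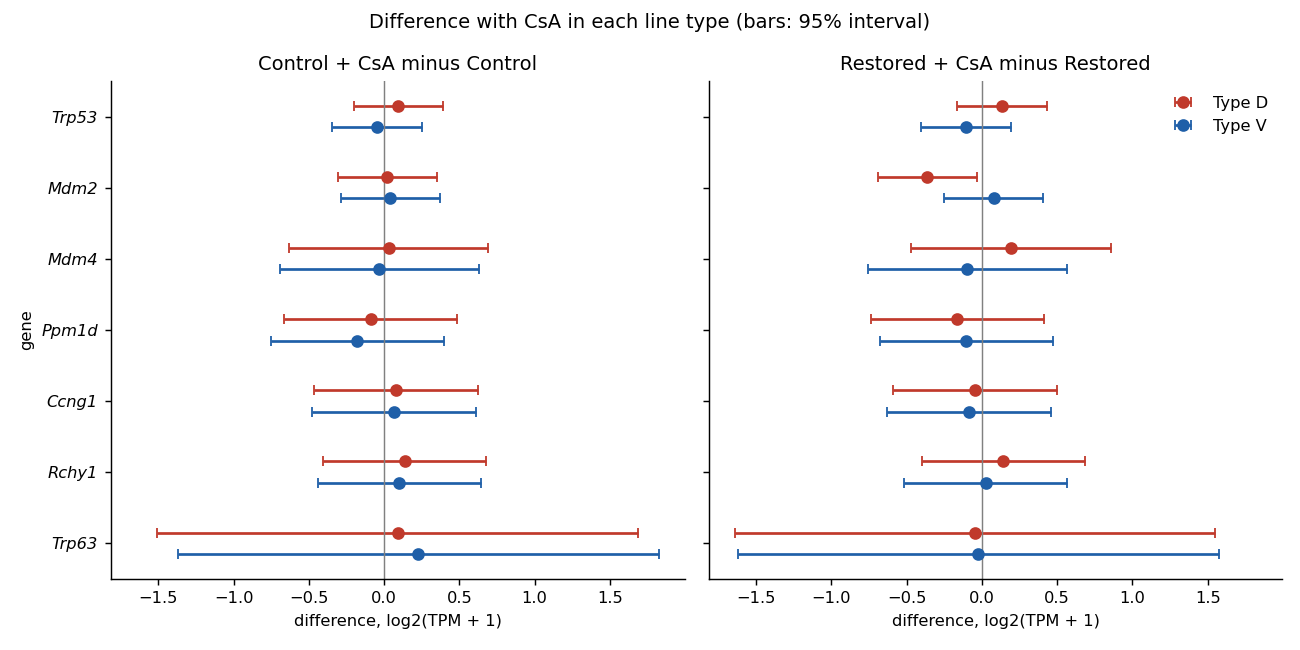
Difference in log2(TPM + 1) with CsA in trapped cells (left) and restored cells (right) for the 7 tested genes; points are limma estimates over 3 lines, bars the 95% interval, red for Type D and blue for Type V. Of the 28 intervals, all from the fit without a block, only the one for Mdm2 in restored Type D lines (-0.69 to -0.03) leaves out 0.

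Genes that act on p53 from outside this set moved in both directions. Of 47 other p53 regulators (ligases, deubiquitinases, cofactors and kinases), 46 were tested, and 3 were called higher and 1 lower with restoration in Type D, with a median change of 0.02 beside 0.07 over all tested genes. In Type V 2 were called higher and 2 lower (median -0.09 beside 0.05). Over all genes, 4.49% were called higher and 2.44% lower in Type D, and 3.39% and 1.9% in Type V, so these few calls say nothing particular about the list. Gtse1, which carries p53 out of the nucleus, rose in both types (2.10 ± 0.22 and 2.22 ± 0.22, SE, log2 scale; adjusted p = 2.0e-06 and 1.5e-06). Ppp1r13l, which encodes the inhibitory p53-binding protein iASPP, also rose in both (2.09 ± 0.34 and 1.27 ± 0.34; adjusted p = 3.0e-04 and 0.020). Wwp1, a ubiquitin ligase, rose in Type D (1.00 ± 0.23; adjusted p = 0.0066). Siah1b, another ubiquitin ligase, fell in both (-1.32 ± 0.26 and -1.03 ± 0.26; adjusted p = 0.0018 and 0.014), and Cdkn2a, whose Arf product blocks Mdm2, fell in Type V (-1.02 ± 0.22; adjusted p = 0.0057). All of these moved the same way in the 3 lines of the type. None of the 46 was called for the difference between types in restoration.

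Between the types, 1 of the 46 regulators was called lower in Type D in Control (Setd7, -1.03, adjusted p = 0.020), 2 higher in Restored (Ccng2, 1.87, adjusted p = 0.0012, and Ppp1r13l, 1.33, adjusted p = 0.013) and 2 higher in Restored + CsA (Cdkn2a, 1.13, adjusted p = 0.0025, and Ppp1r13l, 1.19, adjusted p = 0.028). The shares of all genes called were 8.83%, 9.44% and 7.82%. The 24 p53 targets that act outside the loop, in arrest, death and repair, are known to follow p53, and 18 were called higher in Type D (median 2.49) and 15 in Type V (median 1.93), with none lower, where 4.49% and 3.39% of all genes were called higher. The leading ones were Ak1 (4.55 ± 0.59), Cdkn1a (4.17 ± 0.30), Eda2r (3.96 ± 0.96) and Gdf15 (3.92 ± 0.81) in Type D, and Cdkn1a (4.80 ± 0.30), Eda2r (3.66 ± 0.96), Btg2 (3.54 ± 0.43) and Ak1 (3.23 ± 0.59) in Type V (all SE, log2 scale, adjusted p from 4.9e-09 to 0.018). Cdkn1a encodes the cell cycle inhibitor p21, and its rise was larger by estimate than that of Mdm2 in Type V and smaller in Type D. Between the types in Control, 2 of the 24 were called higher in Type D (Gdf15, 4.35 ± 0.81, adjusted p = 0.0013, and Cdkn1a, 1.07 ± 0.30, adjusted p = 0.024) and 1 lower (Sesn1, -1.17, adjusted p = 0.039), against 8.83% of all genes. Gdf15 was the 1 called in Restored (5.45 ± 0.81, adjusted p = 1.6e-04, against 9.44%) and in Restored + CsA (4.19 ± 0.81, adjusted p = 0.0020, against 7.82%), and none was called for the difference in restoration.

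The genes whose pattern was most like that of each member were found by the root-mean-square (RMS) difference between profiles of the 8 group means of log2(TPM + 1), each centred on its own mean. For Mdm2 these were Hyal1 (RMS difference 0.25), Gna15 (0.27) and St14 (0.34), against a spread of 1.92 for Mdm2 itself. St14 rose by 4.03 in Type D and 2.60 in Type V, and Hyal1 by 3.75 and 3.43. For Trp53 they were Tbc1d8 (0.17), Eda2r (0.22) and C130083M11Rik (0.22), and for Ccng1 Zfp365 (0.14), Psrc1 (0.15) and Fbxw9 (0.18). Dcaf4 (0.08), Pvt1 (0.08) and Ankrd13d (0.09) were nearest to Mdm4, 1110012L19Rik (0.05), Gcnt2 (0.05) and Rasal2 (0.08) to Ppm1d, and Mef2a (0.04), N4bp2 (0.05) and Snx29 (0.06) to Rchy1. Nearest to Trp63 were Medag (0.12), Ebf3 (0.14) and Nap1l2 (0.14), which were low in Type D Control (0 to 1.59 TPM) and higher in Type V Control (12.5 to 34.1 TPM). Over the 24 single libraries instead of the 8 means, 5 of the 21 genes were named again (C130083M11Rik, Hyal1, Dcaf4, Fbxw9 and Mef2a), so the choice of the other 16 rests on averaging over lines.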

How the data were processed

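RNA from 6 lines under 4 treatments (24 libraries, 3 lines in each of 8 groups) was sequenced by the authors from stranded mRNA libraries as single-end reads. The authors deposited TPM values for 25239 genes. Their methods name Kallisto or HISAT2 and a mouse build given both as mm10 and as GRCm39, without saying which made the table. Since TPM keeps no depth, no count model was used and the precision of single values is unknown. Values were turned to log2(TPM + 1), and 14104 genes with at least 1 TPM in at least 3 samples were fitted with limma 3.58.1 (R 4.3.3), with 1 coefficient per group and a trended prior, for 17 comparisons. P-values were Benjamini-Hochberg adjusted over all tested genes. A gene was called at an adjusted p under 0.05 and a log2 change of at least 1. Ratios were compared by exact permutation (scipy 1.17.1).

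The 8 members and the gene lists were chosen with earlier results of these data known. All 8 members are named. From each list up to 4 of the largest rises and falls per type are named, among called genes with one direction in the 3 lines, and each gene most like a member was taken from a fixed ranking. Genes called between the types were named after their values were seen. Groups and lines came from the sample labels. The 4 libraries of a line share the cell line, which pairs them: deviations from the group means correlated at 0.599 to 0.929 over 36 same-line pairs and at -0.675 to 0.0438 over 72 pairs of different lines. A fit with the line as a block was therefore run as an alternative, beside another pseudocount (0.1), other filters (none, or 5 TPM), quantile and median-ratio scaling, the compared groups alone, and each line left out. On simulated data for restoration in Type D with 14104 genes, 66.3% of genes changed by 1.5 log2 and 88.7% of genes changed by 3 log2 were called. The simulated libraries were independent, with no pairing by line and no group differences beyond the changes put in. These shares therefore need not hold for the real libraries. Positions are from GENCODE M21 (GRCm38), and promoter sequences from RefSeq (GRCm38.p6). Columns of the table all matched a sample.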

Additional observations from a re-analysis of the deposited data

Results flagged for a closer look

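Groups of 3 lines are too small for a test of a single outlying sample. The results below are those where a test of the difference between the types passed in 1 of the fits, or where every line of one type moved opposite to every line of the other.

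The rise of Mdm2 with restoration was larger in Type D by 1.01 on the log2 scale with the cell line as a block (limma, adjusted p = 0.0075), and not past the threshold without the block (adjusted p = 0.31). In that blocked fit the difference for Trp63 was 0.70 without CsA (adjusted p = 0.046) and 0.81 with CsA (adjusted p = 0.024), since Trp63 was lower in the 3 restored Type V lines and near 0 throughout Type D. The rise of Rchy1 with restoration under CsA was larger in Type D by 0.33 (blocked adjusted p = 0.039, unblocked adjusted p = 1.0).

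With CsA added to restored cells, Trp53 was higher in 3 of 3 Type D lines and lower in 3 of 3 Type V lines. The difference between the types was 0.24 on the log2 scale (limma, 95% interval -0.18 to 0.66, adjusted p = 1.0), so no test shows that the types differed.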

How the results depend on the processing

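Of the counts of members called, those for restoration in Type D (5), Type V (4) and all 6 lines (5) stayed within 1.5 times under every scaling, filter, pseudocount and block. Leaving out 1 line at a time gave 4 to 5, 4 to 4 and 4 to 5. Under CsA the count in Type D was 3 to 5 over these, with 3 without line 4716-11. Between the types, leaving out 1 line gave 0 to 1 in Control (0 without line 4711-1), 1 to 2 in Restored and 0 to 1 in Restored + CsA, all through Trp63. In Restored, Trp63 lost its call without any 1 of the Type D lines or without line 4716-10 (adjusted p from 0.053 to 0.13), and in Restored + CsA likewise (0.056 to 0.13). With the compared groups alone the counts were 1 in Restored and 0 in Restored + CsA. The cell line as a block added 1 call for the difference between types in restoration (Mdm2) and changed no count of members by more than 1.5 times elsewhere. Over 494 alternatives of 38 single results for members, 455 kept their side of the threshold, 32 no longer passed, 7 newly passed and none turned direction. With the block, calls over all genes went from 977 to 1582 for restoration in Type D, from 746 to 1222 in Type V and from 4 to 344 for their difference, and with the compared groups alone they went from 746 to 291 for restoration in Type V and from 1246, 1331 and 1103 to 631, 490 and 598 between the types in Control, Restored and Restored + CsA. Log2 ratio differences in Restored kept their sign under pseudocounts of 0 and 0.1 and without each line. Unknown depth limits what can be said of Trp73 and of Trp63 in Type D, where 0 is a listed value and not a measured absence. The cause of the lost calls was not tested.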
